A study of Mus musculus with 14 samples.

Results

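The comparison described here set BH1-Bcl2-Ik1ER cells kept for 6 h with 4-hydroxytamoxifen (4OHT, 100 nM) and IL-7 against the same cells at time 0. It took in 4 of the 14 arrays of the series, 2 at 6 h and 2 at time 0, chosen by their titles, and 1 array of each pair came from each of 2 independent experiments. BH1 is a mouse pre-B cell line that lacks normal Ikaros function. Every group, time 0 included, consisted of BH1 cells sorted after transduction with retroviruses for Bcl2, which blocks apoptosis, and for Ik1ER, a fusion of Ikaros with the estrogen receptor that 4OHT activates. IL-7 came from medium conditioned by an IL-7-producing cell line, at 8% in the culture. The growth protocol gives this medium for the line as a whole, so IL-7 was not a labelled difference between 6 h and time 0, although the time 0 titles do not name it. The other groups, used here for values beside the comparison, were 6 h with 4OHT and no IL-7, and the 4 combinations of 4OHT and IL-7, each present or absent, at 24 h, again with 2 arrays each. There is no labelled 6 h array without 4OHT and no group that lacks the fusion, so 6 h of culture, 4OHT itself and Ikaros activity cannot be told apart in this comparison. All genes with a probe set of 1 symbol were tested, 19938 in number, each through its brightest probe set.

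Ikaros, encoded by Ikzf1, is a zinc finger protein of the lymphoid lineages that can lower or raise the genes it binds, and in pre-B cells it is known to restrain growth and to favour differentiation. IL-7 drives the growth of B cell precursors through the kinases JAK1 and JAK3 and the transcription factor STAT5. STAT5 raises genes of its own feedback inhibitors, such as Cish, and is known to lower Bcl6, a transcriptional repressor. Of 13 B lineage precursor markers measured, 9 had a mean above the median of all values in at least 1 of the 2 groups. Cd79b and Cd24a, surface proteins of the lineage, and Ebf1 and Pax5, its transcription factors, all lay at 11.79 or above in each of the 4 arrays on the log2 scale, where the median of all values was 7.33. The 4 below that median were Rag1 and Rag2, the subunits of the recombinase, Dntt, which adds nucleotides at V(D)J joints, and Kit, a growth factor receptor of earlier stages. None of the 6 T cell, 5 natural killer, 6 myeloid, 3 erythroid and megakaryocyte, 5 plasma cell and 6 stromal markers measured passed the test between 6 h and time 0, and 1, 0, 1, 1, 2 and 3 of them, in that order, had a mean above the median of all values. The brightest were Zap70 (9.22 and 9.33 at 6 h, against 9.11 and 9.20 at time 0) of the T cell list and Xbp1 (11.24 and 11.54 at 6 h, against 11.46 and 11.37 at time 0) of the plasma cell list. In whole-culture RNA, fewer cells of a type and less RNA per cell cannot be told apart.

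Array medians were 7.26 and 7.37 at 6 h and 7.27 and 7.33 at time 0, and Pearson's r between the 2 arrays of a group, over genes, was 0.9933 to 0.9965 in the 7 groups. Ikzf1 was read at 13.03 and 13.14 at 6 h and at 13.04 and 13.19 at time 0, a difference of -0.03 ± 0.07 (limma adjusted p = 0.918). The positions of its probes were not available, so this reading does not separate the transcript of the line from that of the fusion. Bcl2 was read at 8.42 and 8.38 at 6 h and at 8.29 and 8.32 at time 0 and did not pass (adjusted p = 0.607). Changes below are log2 differences, 6 h minus time 0, with their standard error (SE) and n = 2 arrays per group. The test was limma's, and adjusted p-values (Benjamini-Hochberg, over the 19938 genes) under 0.05 passed. With so few arrays precision is limited, and the median SE was 0.0912.

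After 6 h, 1748 of the 19938 genes (8.77%) differed from time 0, 781 of them higher (3.92%) and 967 lower (4.85%). With the experiment as a block the count was 2999, with 1362 higher (6.83%) and 1637 lower (8.21%), and it was 1067 without the first 6 h array and 1160 without the second time 0 array. All 1748 genes moved the same way in both experiments with no overlap between the arrays of the groups, which held for 8196 of all 19938 genes. Most changes were small. The median size was 0.49 for rises and 0.52 for falls, and changes of 2-fold or more numbered 56 among rises and 141 among falls. Genes named below as risen or fallen also passed in every alternative fit that tested them, unless the sentence says otherwise. The fit without dim genes left some of them out, such as Cxcr5 and Gbp7. Below, every setting or every alternative stands for every fit that tested the gene. The gene lists below and their members were picked when earlier results of these data were already known. A list's count set beside the share of all genes therefore describes that list and does not test it.

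The start regions of Cish and Bcl6 are shown because these genes had the smallest p-values of all genes tested, moved in opposite directions and both hold a STAT motif. Sequences are from RefSeq on GRCm38.p6, 250 bases before and 30 bases after the annotated start, given 5′ to 3′ on the gene's strand. Capitals mark TTCNNNGAA, the palindrome that STAT factors bind, for Cish at chr9:107296409-107296688 on the plus strand and for Bcl6 at chr16:23988823-23989102 on the minus strand.
Cish: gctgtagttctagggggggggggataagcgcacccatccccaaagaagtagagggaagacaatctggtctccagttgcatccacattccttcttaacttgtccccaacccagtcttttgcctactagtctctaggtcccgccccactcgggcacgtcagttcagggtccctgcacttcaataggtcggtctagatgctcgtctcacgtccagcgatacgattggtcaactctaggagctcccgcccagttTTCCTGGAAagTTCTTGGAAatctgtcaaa
Bcl6: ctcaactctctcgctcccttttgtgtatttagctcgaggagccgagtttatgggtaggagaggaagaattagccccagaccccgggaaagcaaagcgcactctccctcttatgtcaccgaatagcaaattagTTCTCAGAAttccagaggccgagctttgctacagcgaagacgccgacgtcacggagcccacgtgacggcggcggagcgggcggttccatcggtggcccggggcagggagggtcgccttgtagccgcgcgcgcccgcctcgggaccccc
The Cish window holds 2 matches, which begin at bases 1 and 12 after the start, and the Bcl6 window holds 1 match that begins 118 bases before it. Searched on both strands in windows of 300 bases (250 before and 50 after the start), the motif was present in 7.83% of the 15614 genes with a window. It was present in 56 of 612 genes that rose (9.15%) and in 42 of 781 that fell (5.38%). A match is a description of these letters and not a measured binding site.

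Cish, whose SH2-domain protein damps STAT5 signalling, was read at 10.76 and 10.67 at 6 h, against 8.27 and 8.27 at time 0. The 6 h arrays lay far above both time 0 arrays. The difference was 2.45 ± 0.08, or 5.45-fold (adjusted p = 4.67e-08). Over the other groups Cish was highest at 24 h with IL-7 and no 4OHT (9.52 and 9.58), and at 6 h with 4OHT but no IL-7 it was read at 7.63 and 7.82, below time 0. The time 0 level was close to that at 24 h without IL-7 and without 4OHT (8.22 and 8.18).

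Bcl6 showed the opposite order. It was read at 7.74 and 7.71 at 6 h, against 10.16 and 10.05 at time 0, a fall of 2.38 ± 0.09 on the log2 scale (adjusted p = 4.67e-08). At 6 h with 4OHT and without IL-7 it was read at 10.27 and 10.14, close to the time 0 arrays, and at 24 h without either agent at 10.40 and 10.41. With IL-7 at 24 h it was intermediate, at 8.74 and 8.82 with 4OHT and 8.86 and 8.66 without.

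Among the 10 feedback inhibitors of cytokine receptors measured, 4 rose and 1 fell. Socs2, another SH2-domain inhibitor, was read at 13.12 and 13.23 at 6 h, against 11.54 and 11.74 at time 0 (1.53 ± 0.12, adjusted p = 7.81e-06). Socs3 rose by 0.44 ± 0.07 (adjusted p = 0.00124). The smaller calls of Socs1 (0.39) and Socs7 (-0.30) ended in a fit of the 4 compared arrays alone (adjusted p = 0.0621 and 0.0947), where 3 members passed. The call of Socs7 also ended when any 1 of the 4 arrays was left out. That of Socs1 ended without either 6 h array or without the second time 0 array. The JAK and STAT genes themselves mostly did not pass, with 1 of 10 members called, or 2 with the experiment as a block. That gene was Stat5a, one of the 2 STAT5 genes, at 10.18 and 10.23 at 6 h, against 11.20 and 10.99 at time 0 (-0.89 ± 0.09, adjusted p = 4.37e-05). Stat5b was -0.11 ± 0.09 (adjusted p = 0.636), and Il7r, the IL-7 receptor chain, was -0.12 ± 0.09 (adjusted p = 0.573).

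**Figure D1:**
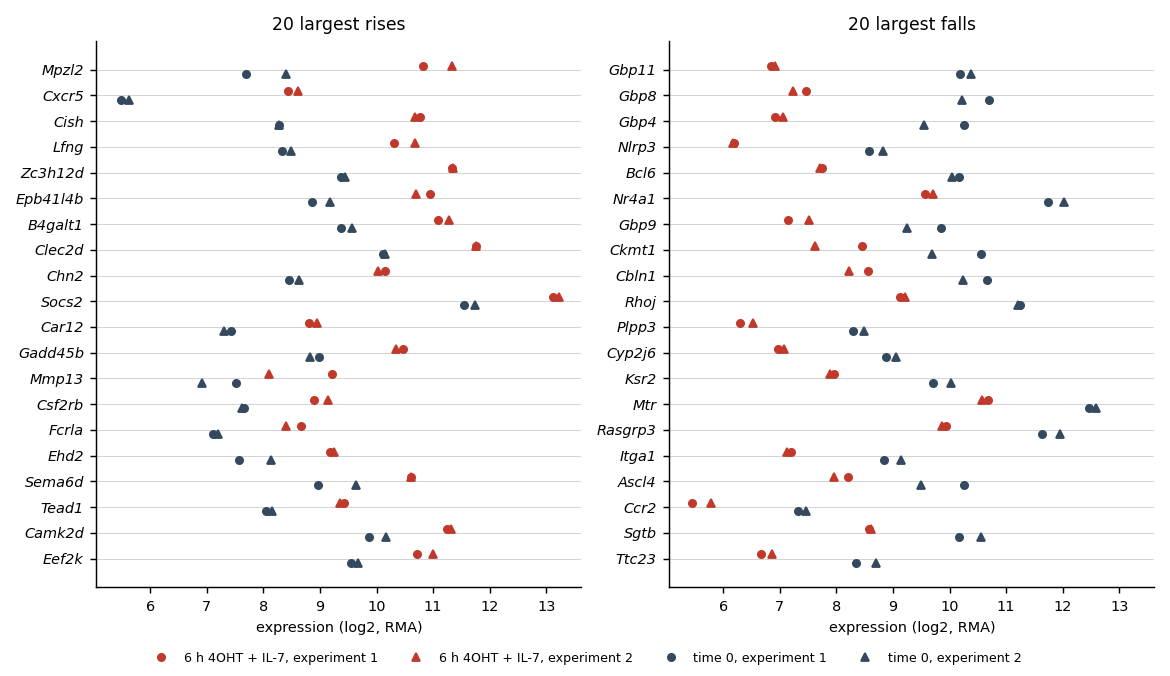
Expression on the log2 scale (RMA values) in each of the 4 arrays for the 20 genes with the largest rises and the 20 with the largest falls. Red symbols are the 6 h arrays and dark symbols the time 0 arrays, with circles for experiment 1 and triangles for experiment 2. In every row the 2 red symbols lie on 1 side of the 2 dark ones, the widest gaps being those of Mpzl2 (3.04) and Gbp11 (-3.40).

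Growth genes of the STAT5 and IL-7 response rose in 7 of 14 members and fell in 2, with a median of 0.45. Mycn, a MYC family transcription factor, was read at 8.36 and 8.43 at 6 h, against 7.19 and 7.12 at time 0 (1.24 ± 0.09, adjusted p = 4.20e-06). At 6 h without IL-7 it was read at 7.13 and 7.19, the time 0 level. Myc rose by 0.72 ± 0.11 (adjusted p = 0.000936) and Ccnd2, a D-type cyclin, by 1.06 ± 0.19 (adjusted p = 0.00334). Both of these lay below time 0 at 6 h without IL-7, where Myc was read at 11.31 and 10.92 and Ccnd2 at 9.10 and 9.43, against 12.55 and 12.49 and 10.77 and 11.06 at time 0. Osm, a cytokine gene, rose by 0.68 ± 0.07 (adjusted p = 6e-05), and Max, the dimer partner of MYC proteins, by 0.44 ± 0.07 (adjusted p = 0.00116). The survival genes Pim2 (0.89), Pim1 (0.74) and Bcl2l1 (0.68) passed here, but Bcl2l1 had an adjusted p of 0.136 and Pim1 of 0.115 without the first 6 h array. Pim2 passed without each array in turn and not in a fit of the 4 compared arrays alone (adjusted p = 0.075).

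Ribosome biogenesis genes moved up together. All 20 members, which encode nucleolar processing factors and subunits of RNA polymerase I, were above 0, with a median of 0.50, and 12 passed, against 3.92% of all genes called higher. Because the list was picked knowing earlier results, this contrast is a description and not a test. With the experiment as a block 19 passed, and in a fit of the 4 compared arrays alone 8 did. Rrp9, a component of the nucleolar U3 particle, was read at 10.32 and 9.98 at 6 h, against 9.27 and 8.94 at time 0 (1.05 ± 0.13, adjusted p = 0.000226). Rrp12, a ribosome maturation factor, rose by 0.94 ± 0.12 (adjusted p = 0.000253), and Polr1b, the second largest subunit of RNA polymerase I, by 0.87 ± 0.10 (adjusted p = 0.000165). Gnl3, a nucleolar GTPase, rose by 0.67 ± 0.10 (adjusted p = 0.000797). For 16 of the 20 members the 6 h group with IL-7 had the highest mean of the 7 groups. The mean level of the 20 was 11.08 and 10.89 at 6 h with IL-7, 9.55 and 9.45 at 6 h without it, and 10.56 and 10.36 at time 0.

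Wdr43, a nucleolar processing factor of this list, is shown as an example of a risen gene whose start region holds CACGTG, the E box that MYC-MAX dimers bind. Its window is chr17:71615965-71616244 on the plus strand of GRCm38.p6, with the motif in capitals, beginning at base 18 after the start.
Wdr43: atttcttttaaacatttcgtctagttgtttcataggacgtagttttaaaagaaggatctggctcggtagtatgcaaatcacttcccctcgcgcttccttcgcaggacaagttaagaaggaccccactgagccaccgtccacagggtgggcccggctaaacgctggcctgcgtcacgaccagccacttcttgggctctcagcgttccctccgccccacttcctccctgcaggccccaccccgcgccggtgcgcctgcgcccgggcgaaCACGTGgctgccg
Wdr43 was read at 11.54 and 11.41 at 6 h, against 10.98 and 10.96 at time 0 (0.51 ± 0.08, adjusted p = 0.00151). The E box, a palindrome that reads the same on both strands, was present in 8.38% of all windows, in 90 of 612 windows of genes that rose (14.7%) and in 70 of 781 of genes that fell (8.96%). Among ribosome biogenesis genes 4 of 15 windows held it (26.7%). Wdr43 and Utp20 were those of the 4 that passed at 6 h. TGGGAA, the core that Ikaros binds, was present in 24.0% of all windows, 25.7% of those of risen genes and 25.9% of those of fallen genes.

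Polyamine and nucleotide synthesis rose in 5 of 15 members, and the list split in its direction. Dctd, which makes the precursor of dTMP, was read at 11.67 and 11.43 at 6 h, against 10.77 and 10.44 at time 0 (0.94 ± 0.12, adjusted p = 0.000317), and Srm, spermidine synthase, rose by 0.86 ± 0.15 (adjusted p = 0.00309). Srm did not pass in a fit of the compared arrays alone (adjusted p = 0.0674). The S phase enzymes of the list lay below 0 without passing, with Rrm2 at -0.48 and Tyms at -0.40. Without the second time 0 array 3 members passed, and with the experiment as a block 9 rose and 2 fell.

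**Figure D2:**
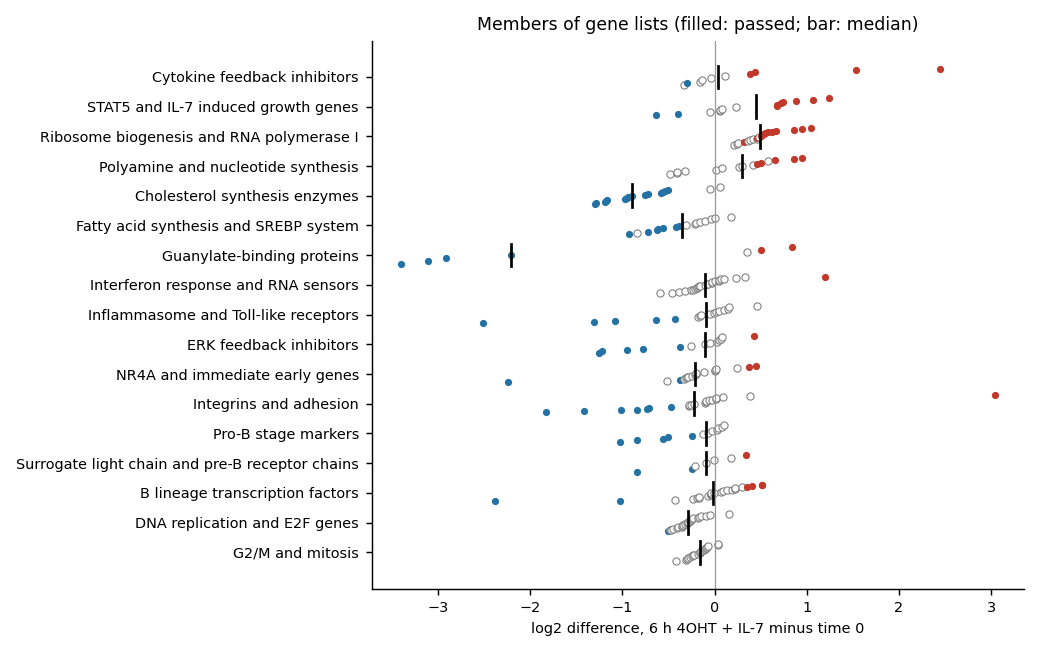
Log2 difference of each measured member, 6 h with 4OHT and IL-7 minus time 0, for 17 gene lists. Red points rose and blue points fell past the test, open points did not pass, the black bar is the list's median and the vertical spread within a row is for legibility. Cholesterol synthesis enzymes lie to the left with a median of -0.90 and ribosome biogenesis genes to the right with a median of 0.50.

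Cholesterol synthesis fell almost as a whole. The pathway runs from acetyl-CoA through mevalonate and squalene to sterols, and its genes are raised by the transcription factor SREBP2 when membranes lack sterol. Of 17 enzymes measured 15 fell and none rose, against 4.85% of all genes called lower, with a median of -0.90. This contrast, too, describes a list picked knowing earlier results and does not test it. The 11 that fell under every setting came from all stages. Hmgcs1, which makes the substrate of HMG-CoA reductase, was read at 10.64 and 10.68 at 6 h, against 11.66 and 12.01 at time 0 (-1.17 ± 0.14, adjusted p = 0.000163). Mvd, of the mevalonate branch, fell by 0.95 ± 0.10 on the log2 scale (adjusted p = 6.75e-05), and Fdps, which makes farnesyl pyrophosphate, by 0.93 ± 0.09 (adjusted p = 3.31e-05). For Hmgcs1, Mvd and Fdps both 6 h arrays lay below both time 0 arrays, and such a lack of overlap held for all 1748 genes that passed.

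Sqle, the squalene epoxidase, was read at 9.83 and 10.01 at 6 h, against 10.91 and 11.26 at time 0 (-1.16 ± 0.13, adjusted p = 0.000109). Cyp51, the lanosterol demethylase, was read at 9.42 and 9.57 at 6 h, against 10.57 and 11.00 at time 0 (-1.29 ± 0.14, adjusted p = 0.000112), and Msmo1, a later methyl sterol oxidase, was -1.30 ± 0.16 (adjusted p = 0.000346). Ebp (-0.05 ± 0.10, adjusted p = 0.902) and Tm7sf2 (0.06 ± 0.09, adjusted p = 0.888), both late enzymes, did not pass. For 15 of the 17 enzymes the highest mean of the 7 groups was that at time 0. The mean level of the 17 was 9.72 and 9.74 at 6 h with IL-7, 9.68 and 9.71 at 6 h without it, and 10.41 and 10.65 at time 0. These levels at 6 h lay close to each other with IL-7 and without it, and they are given without a test.

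Fatty acid synthesis and the SREBP system had 7 of 16 members lower and none higher, with a median of -0.35. The desaturases Fads2 (-0.93 ± 0.15, adjusted p = 0.00154) and Fads1 (-0.72 ± 0.08, adjusted p = 0.000108) passed under every setting. The calls of Srebf2, which encodes SREBP2 (-0.62 ± 0.11, adjusted p = 0.00334), and Insig1, its sterol-regulated inhibitor (-0.63 ± 0.11, adjusted p = 0.00243), ended in a fit of the compared arrays alone, with adjusted p = 0.0602 and 0.0628. Without the second time 0 array 4 members of the list passed.

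Guanylate-binding proteins gave the largest falls of all genes named. These GTPases of cell-autonomous immunity are classically induced by interferons. Gbp11 was read at 6.85 and 6.91 at 6 h, against 10.19 and 10.37 at time 0, a fall of 3.40 ± 0.15 on the log2 scale that made time 0 10.5-fold the level at 6 h (adjusted p = 1.85e-07). Gbp8 was read at 7.46 and 7.23 at 6 h, against 10.69 and 10.22 at time 0 (-3.11 ± 0.17, adjusted p = 5.39e-07). Gbp4 was -2.91 ± 0.21 (adjusted p = 4.56e-06) and Gbp9 -2.21 ± 0.20 (adjusted p = 2.42e-05). These 4 genes are close paralogs, so their probe sets may read each other's transcripts, and they may not be 4 separate measurements. Gbp7 went the other way, at 7.91 and 7.78 at 6 h, against 7.0 and 7.01 at time 0 (0.84 ± 0.14, adjusted p = 0.00225). Gbp5 (0.50) passed in every fit that tested it except without the first 6 h array (adjusted p = 0.0522).

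The 25 interferon-induced and RNA sensor genes measured had a median of -0.11. None fell, against 4.85% of all genes called lower, and 1 rose, against 3.92% called higher. With the experiment as a block 2 fell, where 8.21% of all genes did. In a list of this size these counts lie near the shares of all genes. The gene that rose was Irf1, a transcription factor, at 9.74 and 9.52 at 6 h, against 8.24 and 8.61 at time 0 (1.20 ± 0.15, adjusted p = 0.00033). None of 4 immunity-related GTPases passed. The list of inflammasome and Toll-like receptor genes had 5 of 16 members lower. Nlrp3, the inflammasome sensor, was read at 6.19 and 6.17 at 6 h, below the median of all values, against 8.57 and 8.83 at time 0 (-2.52 ± 0.11, adjusted p = 1.85e-07). Tlr4, the receptor of bacterial lipopolysaccharide, fell by 1.31 ± 0.14 (adjusted p = 0.000108), and Il18, a cytokine that inflammasomes activate, fell by 1.08 ± 0.12 (adjusted p = 0.000122). Smaller falls were read for Tlr3 (-0.64) and Tlr2 (-0.43), and Casp1, the inflammasome's protease, was -0.18 ± 0.11 (adjusted p = 0.453).

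Receptors and adhesion genes changed in both directions. Cxcr5, the chemokine receptor that guides B cells into follicles, was read at 8.43 and 8.62 at 6 h, against 5.48 and 5.63 at time 0, which is far below the median of all values (2.97 ± 0.17, adjusted p = 9.77e-07). It was read at 5.64 and 5.67 at 6 h without IL-7, and at 8.65 and 8.04 at 24 h with 4OHT and IL-7, against 6.49 and 6.26 at 24 h with IL-7 alone. The readings above the median of all values were thus those with 4OHT and IL-7 together. Ccr2, a chemokine receptor best known from monocytes, fell by 1.78 ± 0.13 (adjusted p = 5.86e-06), and Ptger4, a prostaglandin E receptor, was read at 8.24 and 8.24 at 6 h, against 9.93 and 9.89 at time 0 (-1.67 ± 0.11, adjusted p = 1.91e-06). The other 10 of 13 genes of this list did not pass.

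Of 21 integrin and adhesion genes 7 fell and 1 rose, all under every setting. Mpzl2, a homophilic adhesion molecule, was read at 10.82 and 11.34 at 6 h, against 7.69 and 8.40 at time 0, the largest rise (3.04 ± 0.29, adjusted p = 4.45e-05). Experiment 2 was the higher of the 2 in both groups. Itga1, a collagen-binding integrin chain, fell by 1.83 ± 0.13 (adjusted p = 3.85e-06), and Itga5, the fibronectin receptor chain, was read at 8.83 and 8.99 at 6 h, against 10.38 and 10.27 at time 0 (-1.42 ± 0.11, adjusted p = 6.31e-06). The others that fell were Ctnnd1 (-1.01), a catenin of cadherin junctions, the laminin receptor chain Itga6 (-0.85), Vcl (-0.73), which links integrins to actin, the tetraspanin Cd9 (-0.71) and Itgb1 (-0.47), the partner of these integrin chains. Itga4 and Itgb7, the chains of a further integrin, were both 0.02.

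Of 18 NR4A and immediate early genes 2 rose and 2 fell, with a median of -0.21. Nr4a1, an orphan nuclear receptor induced by antigen receptor signals, was read at 9.57 and 9.71 at 6 h, against 11.74 and 12.03 at time 0 (-2.24 ± 0.11, adjusted p = 2.93e-07). The classical immediate early genes Egr1 (-0.20, adjusted p = 0.378) and Fos (-0.25, adjusted p = 0.568) did not pass. The smaller calls of Jund (0.45), Nr4a3 (0.37) and Klf4 (-0.37) each ended under some alternatives. Of the 18 genes, 1 passed without the first 6 h array, 2 without each time 0 array, and 8 with the experiment as a block, 6 of these lower. Dusp6, a phosphatase that limits ERK, fell by 1.26 ± 0.19 (adjusted p = 0.00114), and Spred2, another brake on the pathway, by 1.22 ± 0.14 (adjusted p = 0.000199). These 2 held in every setting among 6 of 13 ERK feedback genes called, 5 lower and 1 higher, and the count was 2 without the second 6 h array and 3 without the first time 0 array. Rasgrp3, an activator of Ras, fell by 1.90 ± 0.11 (adjusted p = 7.32e-07), Ksr2, a scaffold of the same cascade, by 1.94 ± 0.09 (adjusted p = 2.68e-07). Of 12 NF-kappaB subunits and feedback genes 2 rose and 1 fell. Tnfaip3, the NF-kappaB brake A20, fell by 0.86 ± 0.10 (adjusted p = 0.000208). Rel, an NF-kappaB subunit (0.64 ± 0.10, adjusted p = 0.00197), was higher but did not pass with the compared arrays alone (adjusted p = 0.066), and Nfkbia, which encodes an inhibitor of the subunits (0.44 ± 0.09, adjusted p = 0.00653), did not pass without the first 6 h array (adjusted p = 0.0559).

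Of 12 pro-B stage markers 5 fell and none rose, where 4.85% of all genes fell and 3.92% rose. Lef1, a transcription factor of early B cells, was read at 11.01 and 10.98 at 6 h, against 11.88 and 12.17 at time 0 (-1.03 ± 0.09, adjusted p = 2.03e-05). Vpreb1, part of the pre-B receptor's surrogate light chain, was read at 10.25 and 10.25 at 6 h, against 11.08 and 11.10 at time 0 (-0.84 ± 0.08, adjusted p = 2.58e-05), while its paralog Vpreb2 was -0.09 ± 0.08 (adjusted p = 0.677). Dntt (-0.56), dim in both groups, and the surface sialoglycoprotein Spn (-0.50) fell too, and the call of Igll1 (-0.24) ended under 6 of the alternatives, leaving out any 1 of the 4 arrays among them. Markers of small pre-B and mature cells had 3 higher and 1 lower of 15, with none called in every setting, 1 called without the first time 0 array and 2 without each 6 h array. Il2ra and Cd2 lay at -0.02 and -0.20 without passing. Xrcc6, the Ku70 subunit of DNA end joining, rose by 0.67 ± 0.08 (adjusted p = 0.000352), and Rag1 (0.09) and Rag2 (0.06) did not pass. Of 24 B lineage transcription factors 4 rose and 2 fell, the falls being Bcl6 and Lef1. The rises of Pax5 (0.52), Spib (0.51) and Irf4 (0.41) each ended without the first time 0 array, with adjusted p-values of 0.0619, 0.0554 and 0.166, and 2 of the 24 passed without the second 6 h array and 3 without the first time 0 array.

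Other genes among the 20 largest rises covered varied roles. Lfng, a glycosyltransferase that modifies Notch receptors, was read at 10.30 and 10.67 at 6 h, against 8.32 and 8.48 at time 0 (2.09 ± 0.16, adjusted p = 6.97e-06), and Nrarp (0.51), Hey1 (-0.12) and Dtx1 (0.06), targets of Notch, did not pass. Hes1, another such target, passed at -0.44 (adjusted p = 0.0441) and did not pass when any 1 of the 4 arrays was left out, with adjusted p = 0.219 without the second 6 h array. Zc3h12d, an RNA-degrading regulator of inflammatory transcripts, was read at 11.33 and 11.35 at 6 h, against 9.37 and 9.44 at time 0 (1.94 ± 0.11, adjusted p = 9.97e-07). Rises of 1.30 to 1.80 were read for the membrane-cytoskeleton gene Epb41l4b, the galactosyltransferase B4galt1, the lectin-like Clec2d, the Rac regulator Chn2, the carbonic anhydrase Car12, the stress gene Gadd45b, the cytokine receptor chain Csf2rb, the B cell protein Fcrla, the membrane ATPase Ehd2, the semaphorin Sema6d and the transcription factor Tead1. Camk2d, a calcium-dependent kinase (1.27), and Eef2k, a kinase that slows translation elongation (1.25), closed the group. Mmp13, a collagenase, was read at 9.21 and 8.10 at 6 h, against 7.51 and 6.92 at time 0 (1.44 ± 0.39, adjusted p = 0.0387), and its call ended without the first 6 h array (0.89, adjusted p = 0.32) and without each time 0 array in turn.

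Among the 20 largest falls, Rhoj, a small GTPase, was read at 9.13 and 9.22 at 6 h, against 11.25 and 11.21 at time 0 (-2.05 ± 0.09, adjusted p = 2.14e-07). Mtr, methionine synthase, was read at 10.68 and 10.57 at 6 h, against 12.46 and 12.59 at time 0 (-1.90 ± 0.08, adjusted p = 1.49e-07). The others were the mitochondrial creatine kinase Ckmt1 (-2.08), the secreted synaptic protein Cbln1 (-2.06), the lipid phosphatase Plpp3 (-1.99), the cytochrome P450 Cyp2j6 (-1.95), the basic helix-loop-helix gene Ascl4 (-1.79), the co-chaperone Sgtb (-1.76) and Ttc23 (-1.75). All of them passed in every setting that tested them.

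Few cell cycle genes passed against time 0. None of 20 G2/M genes passed, 1 had an unadjusted p under 0.05 and 3 passed with the experiment as a block, all 3 lower. Of 25 DNA replication genes 24 lay below 0, with a median of -0.29, and 1 passed, Chaf1a (-0.51 ± 0.13, adjusted p = 0.0344), which did not pass without the second 6 h array (adjusted p = 0.247) or without the first time 0 array (adjusted p = 0.272). With the experiment as a block 8 of the 25 fell, where 8.21% of all genes did. The mean level of the 25 was 10.28 and 9.88 at 6 h, against 10.53 and 10.19 at time 0, lower in experiment 2 in both groups. The D-type cyclins split, with Ccnd2 higher and Ccnd3 lower (-0.39, adjusted p = 0.0544 in a fit of the compared arrays alone). Because 4OHT binds estrogen receptors, their targets were listed too, and of 10 genes 2 were lower and none higher, with a median of -0.21. Esr1, which encodes the alpha receptor, fell by 0.86 ± 0.11 (adjusted p = 0.000313), while Pgr (-0.04, adjusted p = 0.916) and Greb1 (-1.31, adjusted p = 0.0784), known targets of that receptor in other tissues, did not pass. The fusion holds a part of an estrogen receptor. Because probe positions were not available, the Esr1 reading may include the fusion's transcript. The second gene called was Ctsd, a lysosomal protease (-0.35 ± 0.09, adjusted p = 0.0253), and it did not pass without the first 6 h array, the second 6 h array or the second time 0 array (adjusted p = 0.153, 0.0756 and 0.195).

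**Figure D3:**
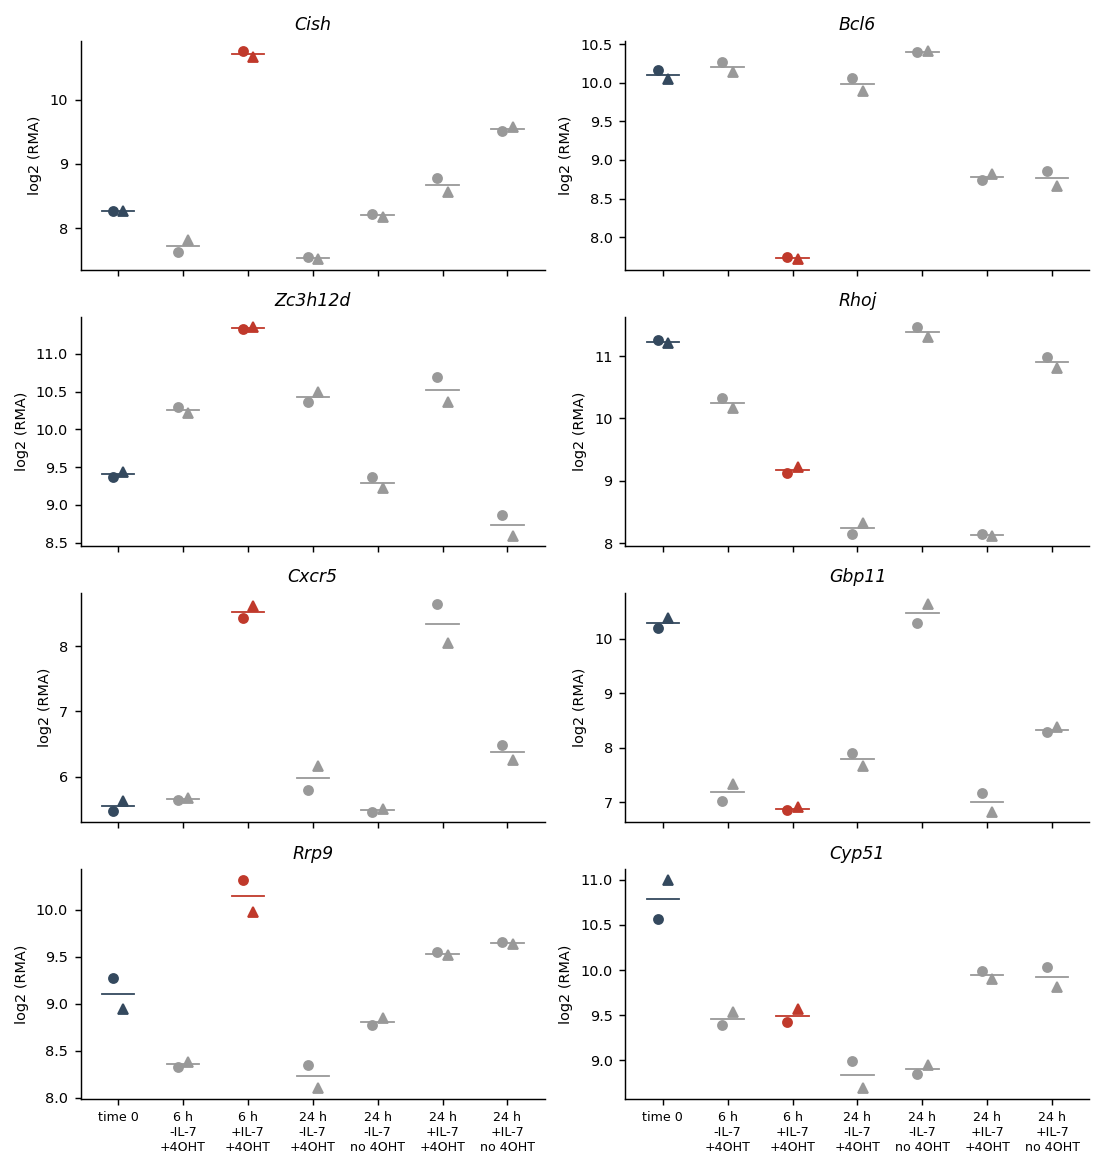
Log2 expression (RMA values) of 8 genes in the 7 groups, with circles for experiment 1, triangles for experiment 2 and a line at each group's mean. Red marks 6 h with 4OHT and IL-7, dark blue time 0 and grey the other groups. Cish and Rrp9 were highest and Bcl6 lowest at 6 h with IL-7, Cyp51 was highest at time 0, and Rhoj and Zc3h12d differed between groups with and without 4OHT at 24 h.

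To see which of these changes were also read with 4OHT at a fixed time of culture, the 24 h groups were used, which share no array with the comparison at 6 h. One fit supplies the spread of a gene to all comparisons, so a gene with little spread is called more easily in all of them. At 24 h with IL-7, 4OHT changed 1826 genes (9.16%), 1041 higher (5.22%) and 785 lower (3.94%), or 824 and 1125 after renewed quantile normalization. Without IL-7, 4OHT changed 3045 genes (15.3%), 1416 higher (7.10%) and 1629 lower (8.17%). The count of 1826 was 847 without the first 24 h array with 4OHT and IL-7, 1006 without the second 24 h array with IL-7 and no 4OHT, and 3324 when the experiment was a block. The count of 3045 was 1841 and 2006 without the first and the second 24 h array that had neither agent. Of the 967 falls at 6 h, 391 (40.4%) were also lower with 4OHT in both 24 h comparisons, which is 65.2% of the 600 genes lower in both (3.01% of all genes). Of the 781 rises, 163 (20.9%) were also higher in both, which is 19.4% of the 842 genes higher in both (4.22% of all genes). The count of 163 was 106 without the second 6 h array, 108 without the first time 0 array and 346 with the experiment as a block, and the count of 391 was 595 with that block. Genes with the opposite sign in both were 17 of the 967 falls (1.76%) and 12 of the 781 rises (1.54%). For rises the 2 comparisons differed. Without IL-7, 181 of the 781 rises (23.2%) were lower with 4OHT, against 8.17% of all genes, and 214 (27.4%) were higher, against 7.10%. With IL-7, 21 (2.69%) were lower and 196 (25.1%) higher.

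The shared falls included many of the largest. All of the 20 largest falls at 6 h were also lower with 4OHT at 24 h without IL-7, and 16 were lower with IL-7. Rhoj was -2.77 with IL-7 and -3.14 without it at 24 h, Nr4a1 was -2.33 and -3.00, and Mtr was -1.65 and -2.50. Cbln1, Plpp3, Cyp2j6, Ksr2, Ckmt1, Nlrp3, Gbp8 and Gbp11 were lower in both as well. Of the 7 integrin and adhesion genes that fell, 5 were lower with 4OHT in both, and so were 4 of the 5 called genes of the inflammasome and Toll-like receptor list, Nlrp3, Tlr4, Il18 and Tlr3. Spred2 (-1.24 with IL-7 and -2.23 without), Dusp6 (-1.09 and -1.81) and Lef1 (-0.70 and -1.13) followed the same direction.

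Among rises, 9 of the largest 20 were also higher with 4OHT at 24 h with IL-7, and 1 was lower. Without IL-7, 9 were higher and 5 lower, namely Cish, Epb41l4b, Chn2, Car12 and Csf2rb. Zc3h12d was 1.80 with IL-7 and 1.14 without it, B4galt1 was 1.22 and 1.40, and Gadd45b was 1.39 and 1.62. Fcrla (2.78 and 2.28) and Ehd2 (2.14 and 1.83) differed more at 24 h than at 6 h, where they were 1.38 and 1.36, although the size at 24 h was not tested against that at 6 h. Cxcr5 was 1.97 with IL-7 and did not pass without it (0.50). Mpzl2 was 0.19 with IL-7 and did not pass, and 1.0 without it.

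Ribosome biogenesis genes and cholesterol enzymes were not among the changes read in both 24 h comparisons. None of the 12 risen ribosome biogenesis genes was higher with 4OHT in both 24 h comparisons, nor was any of the 15 fallen cholesterol enzymes lower in both. Of all 20 ribosome biogenesis genes, 17 were lower with 4OHT at 24 h without IL-7 (median -0.70), and none passed with IL-7 (median -0.12). Other lists varied in how many called genes kept their sign in both. It was 1 of the 9 called STAT5 and IL-7 growth genes and 2 of the 7 called fatty acid and SREBP genes. But it was all 3 called NF-kappaB genes, 4 of the 6 called B lineage transcription factors and 3 of the 5 called pro-B stage markers. Cyp51 was 0.02 with IL-7 and -0.06 without it, and Rrp9 was -0.12 and -0.58. Cish had the opposite sign, at -0.88 with IL-7 and -0.67 without. Ckm, the muscle creatine kinase, Kif19a, a kinesin, Lmcd1, a LIM domain protein, and Fam43a also changed sign, with falls at 6 h of 1.28, 0.80, 0.73 and 0.63 on the log2 scale and higher levels with 4OHT in both 24 h comparisons. Rgl1, Cd180, Prkch, Pipox and Fgd2 passed with opposite signs as well, but their calls at 6 h ended under at least 1 alternative.

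**Figure D4:**
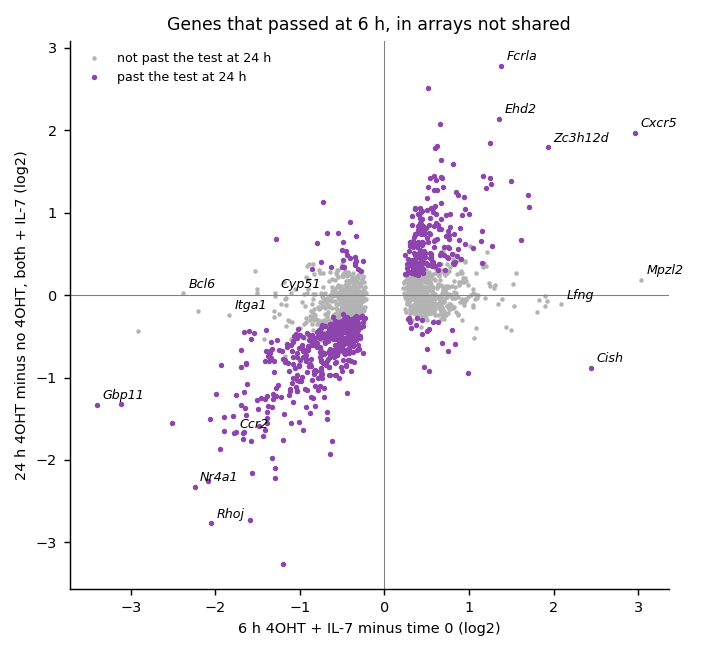
Each point is a gene that passed at 6 h, with its log2 difference at 6 h against time 0 on the x axis and its log2 difference for 4OHT at 24 h with IL-7 on the y axis, from arrays not shared. Purple points also passed at 24 h. Rhoj, Nr4a1 and Gbp11 lie low in both, Zc3h12d and Cxcr5 high in both, Bcl6 and Lfng near 0 at 24 h, and Cish has opposite signs.

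IL-7 withdrawal for 24 h without 4OHT, also on arrays not shared with the comparison, changed 3982 genes, 2232 higher (11.2%) and 1750 lower (8.78%), or 2081 higher and 2237 lower after renewed quantile normalization. Without the second 24 h array that had neither agent it was 1113 higher and 1166 lower, 2279 in all, and without the second 24 h array with IL-7 alone 1202 higher and 1462 lower. Of the 781 rises at 6 h, 290 (37.1%) were lower after withdrawal, against 8.78% of all genes, and 137 (17.5%) were higher, against 11.2%. Of the 967 falls, 358 (37.0%) were higher after withdrawal and 104 (10.8%) lower. Cish (-1.36), Socs2 (-1.53), Lfng (-1.28), Ccnd2 (-1.79) and Cxcr5 (-0.89) were lower after withdrawal, and Bcl6 (1.65) and Gbp11 (2.14) higher. All 12 risen ribosome biogenesis genes were lower after withdrawal, such as Rrp9 (-0.84) and Polr1b (-0.99). All 6 called Gbp genes had the opposite sign after withdrawal. Cholesterol enzymes were an exception, since 11 of the 15 that fell at 6 h were lower after withdrawal too, with Cyp51 at -1.02.

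Culture with IL-7 and no 4OHT was measured at 24 h, not at 6 h, and its values share the time 0 arrays, so they stand beside those at 6 h as levels and not as support. At 24 h against time 0, 617 genes changed (3.09%), 147 higher (0.737%) and 470 lower (2.36%), or 250 and 319 after renewed quantile normalization. That count was 79 without the second time 0 array, 39 without the second 24 h array and 2056 with the experiment as a block. Cish was 1.28 at 24 h, Socs2 1.26, Lfng 1.11, Bcl6 -1.35, Gbp11 -1.96 and Cyp51 -0.86. The 17 cholesterol enzymes had a median of -0.61 at 24 h, with 12 lower and none higher, and the 20 ribosome biogenesis genes one of 0.40, with 7 higher and none lower. In contrast Rhoj was -0.33 (not passed), Zc3h12d -0.68, Gadd45b 0.27 (not passed), Mycn 0.08 (not passed) and Tead1 0.08 (not passed).

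A direct test of 6 h with 4OHT against 24 h without it, both with IL-7, called 1555 genes (7.80%), 918 higher (4.60%) and 637 lower (3.19%) at 6 h, or 692 and 979 after renewed quantile normalization. That count was 704 without the second 24 h array, 710 without the second 6 h array 1019 without the first 24 h array and 3098 when the experiment was a block. This test shares the 6 h arrays with the comparison against time 0. Cish (1.16), Mycn (1.16), Zc3h12d (2.61), Cxcr5 (2.15) and Irf1 (1.33) were higher at 6 h than at 24 h without 4OHT, and Rhoj (-1.72), Nr4a1 (-1.45) and Bcl6 (-1.03) lower. Socs2 (0.28), Myc (0.37), Gbp4 (-0.63) and Cyp51 (-0.43) did not pass. Of the 17 cholesterol enzymes 2 differed, Fdps (-0.32) and Sqle (-0.58), both lower at 6 h, and of the 20 ribosome biogenesis genes 2 were higher at 6 h. Of the 25 DNA replication genes 20 were lower at 6 h and none higher, with a median of -0.67, against 3.19% of all genes called lower. Of the 20 G2/M genes 1 was lower. Time and 4OHT both differ in this test and cannot be told apart.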

How the data were processed

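RNA of BH1-Bcl2-Ik1ER cells was measured on 14 Affymetrix whole-transcript arrays, 2 per group in 7 groups, and the sample titles give each array's group and experiment. Targets were made from 150 ng of total RNA, per the labels' protocols. The authors deposited log2 values for 35556 probe sets, and the submitters' processing notes name RMA and Affymetrix Expression Console 1.1. RMA normalizes arrays against each other, so a change is read against most other genes (median log2 change -0.02). The deposited arrays still differed in their medians, from 7.23 to 7.43 on the log2 scale. Renewed quantile normalization was therefore among the alternatives. Build and annotation of the arrays: not given in the sources used here. The values were used as deposited.

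Of the probe sets 21789 had 1 symbol in the platform annotation, 1621 had several and 12146 were unlisted. The last 2 kinds were not used. For the 999 genes with more than 1 probe set the brightest was taken, which left 19938 genes.

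Differences were tested, two-sided, with limma 3.58.1 in R 4.3.3 (lmFit, eBayes) in 1 fit of all 14 arrays with a mean per group (7 residual and 4.83 prior degrees of freedom). Groups and genes shared the estimate of spread. P-values measure the spread between 2 experiments in 1 line. The experiment numbers pair the arrays: after subtraction of group means, arrays of the same number correlated above 0 in each of the 21 pairs of groups (0.124 to 0.631). The block by experiment was an alternative. Others were quantile normalization, the mean of a gene's probe sets, a mean-variance trend, the 4 compared arrays alone, and leaving out each array. A further one, without dim genes, kept only genes whose mean over all 14 arrays exceeded the median of all values. It also left out some genes above that median in 1 group, such as Cxcr5. The fit was tested on simulated data.

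Genes are named by size (the 20 largest rises and the 20 largest falls that passed, had 1 sign in both experiments and exceeded the median signal in 1 group, leaving out predicted genes, olfactory receptors, small RNAs and immunoglobulin variable segments), the 10 largest shared with and the 10 largest opposite to both 24 h comparisons of 4OHT, and members of gene lists. Members and lists were chosen with earlier results of these data known. Promoter windows of 15614 genes came from RefSeq.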

Additional observations from a re-analysis of the deposited data

How the results depend on the processing

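The count of 1748 genes at 6 h against time 0 kept a similar split of rises and falls with quantile normalization (1921), without dim genes (1899), with the mean of probe sets (1745) and with a mean-variance trend (1703). It moved to 884 with the compared arrays alone, to 2999 with the experiment as a replicate block, and to between 1067 and 1344 without 1 of the 4 arrays. With the block the counts were 3324 for 4OHT at 24 h with IL-7, 2056 for 24 h against time 0, 3098 for 6 h with 4OHT against 24 h without it, 346 for shared rises and 595 for shared falls. With the compared arrays alone they were 128 for 24 h against time 0, 871 for 6 h against 24 h and 75 for shared rises. Leaving out 1 array gave 847 to 1700 genes for 4OHT at 24 h with IL-7, 1841 to 2282 for 4OHT without IL-7, 2279 to 3252 for IL-7 withdrawal, 39 to 745 for 24 h against time 0, 704 to 1053 for 6 h against 24 h, and 106 to 162 shared rises. Of 621 genes named or listed 182 passed, and 77 of these lost the call under at least 1 alternative, 6 of them among the 49 named by size or overlap. The block ended no call among these genes. Hk1, a glycolysis enzyme at 0.10 here, was -0.58 (adjusted p = 0.00113) with the mean of its probe sets, since its probe sets disagree. Scanner intensities were not used here, so detection limits are unknown, and with 2 arrays per group small changes may be missed.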

Other observations

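A few further groups held genes that passed under every alternative. In the TGF-beta pathway, Smad7, its feedback inhibitor, was read at 8.81 and 8.93 at 6 h, against 7.72 and 7.69 at time 0 (1.16 ± 0.07, limma adjusted p = 1.91e-06), and Tgfb1, the ligand, rose by 0.73 ± 0.11 (adjusted p = 0.00139). Of 12 genes of that pathway 4 rose and 2 fell, and 2 in all passed without the first 6 h array. Smad7 was also higher with 4OHT at 24 h, by 1.44 with IL-7 and by 1.85 without it, and it was 7.64 and 7.65 at 24 h with IL-7 and no 4OHT. Of 11 p53 targets 3 fell and none rose, namely Plk2 (-0.86), a kinase, Sesn2 (-0.71), a stress sensor, and Pmaip1 (-0.52), which encodes the apoptosis factor NOXA. In the BCL2 family Bcl2l11, which encodes the apoptosis factor BIM, rose by 0.63 ± 0.07 (adjusted p = 0.000202) and was also higher with 4OHT at 24 h, by 0.30 with IL-7 and 0.73 without it.

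Of 16 hypoxia response genes 4 rose and 1 fell, against 3 passing in all without the first 6 h array or either time 0 array and 8 with the experiment as a block. Car12, a carbonic anhydrase, rose by 1.52 ± 0.17 (adjusted p = 0.000142) and P4ha1, a collagen hydroxylase, by 0.99 ± 0.16 (adjusted p = 0.00171), while Ndrg1 (-0.19) and Pdk1 (0.01) did not pass. Of 16 circadian clock genes Dbp, an output factor, rose by 0.67 ± 0.11 (adjusted p = 0.00171), and Arntl, which encodes BMAL1, fell by 0.59 ± 0.10 (adjusted p = 0.00238). Of 15 glycolysis genes 1 rose and 1 fell, near the shares of all genes (3.92% higher and 4.85% lower). With the experiment as a block 2 rose and 2 fell. The gene that rose was Hk2, a hexokinase (0.69 ± 0.11, adjusted p = 0.00154), which was lower after IL-7 withdrawal at 24 h (-1.11). None of 10 glucocorticoid response genes passed, 4 had an unadjusted p under 0.05, and 1 rose and 2 fell with the experiment as a block.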
